A study of Homo sapiens with 25 samples.

Results

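In control HCT116 cells, the sites of the H3K4 methyltransferase MLL4 were set against the regions that carry its product, monomethylated lysine 4 of histone H3 (H3K4me1). HCT116 is an established human colorectal carcinoma line, and the control cells carried an empty pSin lentiviral vector under puromycin selection. FOXD2 cells, used in 1 comparison at the end, carried the full FOXD2 coding sequence in that vector under the same selection. Chromatin immunoprecipitation with sequencing gave 1 list of peaks per library, and 4 of the series' 25 libraries enter here: 2 for MLL4 and 2 for H3K4me1. Control lists of H3K4me3 (1 list) and H3K27ac (2 lists) described the same places. Histone marks were precipitated without crosslinking from chromatin cut by MNase, whereas MLL4 was precipitated from crosslinked, sonicated chromatin. Peaks of the 2 lists of a kind were merged into regions, and a region counted as shared when both lists had a peak in it. This left 78103 shared H3K4me1 regions of 108895 found in any list, and 8188 shared MLL4 sites of 21212. An H3K4me1 region carried MLL4 when a shared MLL4 site overlapped it by at least 1 bp.

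MLL4, encoded by KMT2D, is the catalytic subunit of a complex that adds single methyl groups to H3K4, and MLL3, encoded by KMT2C, leads a sister complex. Both are best known for marking enhancers, together with the demethylase UTX (KDM6A) and the adaptor PTIP (PAXIP1). H3K4me1 is broad and marks enhancers and the flanks of promoters, H3K4me3 marks the starts of active or poised genes, and H3K27ac marks active enhancers and promoters. In the colon, enhancers of this kind lie beside genes of epithelial identity and of the Wnt pathway.

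Promoters where the MLL4 summit, the highest point of the peak, fell inside the window are shown for both kinds of site. They were among the stronger sites of each kind whose summit lay in exactly 1 window of RefSeq's promoter table (GRCh38.p14, 250 bases before to 50 after the gene's start). Not all windows of that table were searched, so stronger sites of either kind may have been passed over. Each is written 5′ to 3′ on the gene's strand, and capitals mark the 21 bases centred on the MLL4 summit. The windows lie at chr18:12407679-12407978 (plus strand) for PRELID3A, chr14:64914111-64914410 (plus) for CHURC1-FNTB, chr2:61017470-61017769 (plus) for PEX13 and chr15:34367147-34367446 (minus) for LPCAT4.
PEX13, MLL4 on no H3K4me1: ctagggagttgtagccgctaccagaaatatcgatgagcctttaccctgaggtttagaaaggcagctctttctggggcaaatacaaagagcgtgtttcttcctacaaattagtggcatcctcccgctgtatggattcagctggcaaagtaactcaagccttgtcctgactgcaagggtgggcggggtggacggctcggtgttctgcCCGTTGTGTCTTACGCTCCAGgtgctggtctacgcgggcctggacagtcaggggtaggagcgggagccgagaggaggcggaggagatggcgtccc
LPCAT4, MLL4 on no H3K4me1: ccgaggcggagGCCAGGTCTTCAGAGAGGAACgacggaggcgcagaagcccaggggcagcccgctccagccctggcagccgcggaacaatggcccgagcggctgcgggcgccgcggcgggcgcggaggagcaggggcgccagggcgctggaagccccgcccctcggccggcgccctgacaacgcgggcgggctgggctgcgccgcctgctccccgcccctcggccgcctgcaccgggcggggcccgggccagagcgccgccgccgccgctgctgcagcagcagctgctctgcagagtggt
PRELID3A, MLL4 on an H3K4me1 region: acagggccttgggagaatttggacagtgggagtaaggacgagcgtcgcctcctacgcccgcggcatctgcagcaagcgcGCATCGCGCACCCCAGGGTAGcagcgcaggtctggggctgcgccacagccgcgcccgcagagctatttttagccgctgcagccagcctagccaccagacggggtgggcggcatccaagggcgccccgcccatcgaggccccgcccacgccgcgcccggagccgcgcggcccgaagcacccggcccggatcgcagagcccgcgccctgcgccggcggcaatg
CHURC1-FNTB, MLL4 on an H3K4me1 region: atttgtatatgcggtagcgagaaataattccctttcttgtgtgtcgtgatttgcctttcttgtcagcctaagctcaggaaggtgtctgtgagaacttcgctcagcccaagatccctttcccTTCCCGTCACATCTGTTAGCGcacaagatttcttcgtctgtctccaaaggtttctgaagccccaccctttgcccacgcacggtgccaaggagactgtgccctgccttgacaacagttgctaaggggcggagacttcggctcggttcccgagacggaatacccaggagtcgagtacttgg
All 4 windows carried H3K4me3. PEX13 encodes a peroxisome import protein and LPCAT4 an enzyme of phospholipid synthesis, and CHURC1-FNTB is the read-through unit of CHURC1 and FNTB. The MLL4 fold, which is the enrichment the authors' peak caller gave, was 10.1 and 8.87 in lists 1 and 2 at PEX13, 8.07 and 10.4 at LPCAT4, 18.8 and 28.9 at PRELID3A, and 20.1 and 12.97 at CHURC1-FNTB. The windows held 15 CpG dinucleotides at PEX13, 39 at LPCAT4, 38 at PRELID3A and 15 at CHURC1-FNTB. The letters GGGCGG, the core bound by SP and KLF factors, occurred on either strand 1, 4, 3 and 1 times in the same order.

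Most H3K4me1 regions carried no MLL4 site, whereas nearly every shared MLL4 site lay on H3K4me1. Of the 78103 H3K4me1 regions, 7355 carried MLL4 (9.42%, 95% Wilson interval 9.21 to 9.62%), and a further 8026 had a peak of only 1 MLL4 list or peaks of both at different places. The other 62722 (80.3%) held no MLL4 peak of either list. Set 1 list against 1 list, the 4 pairings gave shares between 11.1% and 11.7%. The carrying regions were wider, with a median width of 3154 bp against 1217 bp in regions without MLL4, and they made up 22.2% of the 143.4 Mb of shared H3K4me1. Under the MLL4 sites themselves lay 3.75% of those bases. In the opposite direction, 244 of the 8188 MLL4 sites (2.98%) touched no H3K4me1 peak of either list, 31 touched a peak of 1 list only, and 7913 (96.6%, 96.2 to 97.0%) lay on a shared region. Intervals cover the counting of regions only, and read depth is unknown.

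The 2 MLL4 lists did not share equally in this. The first control list had 16046 peaks, of which 81.0% lay on shared H3K4me1 regions, and the second had 13571, of which 93.7% did. Of peaks found in both lists, 95.3% and 95.1% did. Of peaks found in 1 list alone the shares were 65.8% in the first and 91.5% in the second. Among peaks of the first list alone, 2519 touched no H3K4me1 peak, and 29.6% of these overlapped H3K4me3. The second list alone gave 406 such peaks, and 71.4% of them overlapped H3K4me3. Median fold was 4.38 and 4.74 for these peaks, against 6.20 and 6.90 for peaks of both lists on H3K4me1. In the first list, the share on H3K4me1 went up with MLL4 fold over 4 classes of equal size, at 64.7%, 74.9%, 87.7% and 96.8%. In the second list the 4 classes were at 89.0%, 92.0%, 95.7% and 98.1%.

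Wide H3K4me1 regions carried MLL4 far more often than narrow ones. The share with MLL4 was 0.40% in H3K4me1 regions under 500 bp, 1.35% at 500 to 1000 bp, 5.21% at 1000 to 2000 bp, 18.1% at 2000 to 4000 bp, 42.6% at 4000 to 8000 bp and 62.6% (59.99 to 65.2%) in the 1322 regions of 8000 bp and over. A wide region has more room for an overlap, so the number of MLL4 sites per Mb of H3K4me1 region was counted as well. It was 9.66, 17.8, 36.8, 68.0, 88.8 and 79.5 over the same 6 bins, so over all regions the density also climbed up to 8000 bp and not beyond. In regions without H3K4me3 it likewise went 1.13, 1.83, 11.2, 31.4, 36.9 and 14.3. In those with H3K4me3 it went 182, 85.2, 72.5, 98.5, 111 and 92.6, with no steady climb. A site counted on 1 bp of overlap, and shared MLL4 sites had a median width of 677.5 bp. Sites reaching beyond a region therefore raised this density most in the narrowest bins. How far this shaped the course over the bins was not tested. Between the widest and the narrowest of 4 equal width classes the share differed by 26.6 percentage points, and by 30.4 to 34.0 points in the 4 pairings. Most carrying regions, 6742 of 7355 (91.7%), held a single MLL4 site. Another 495 held 2, 87 held 3, and 31 held 4 or more, with a maximum of 6.

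**Figure D1:**
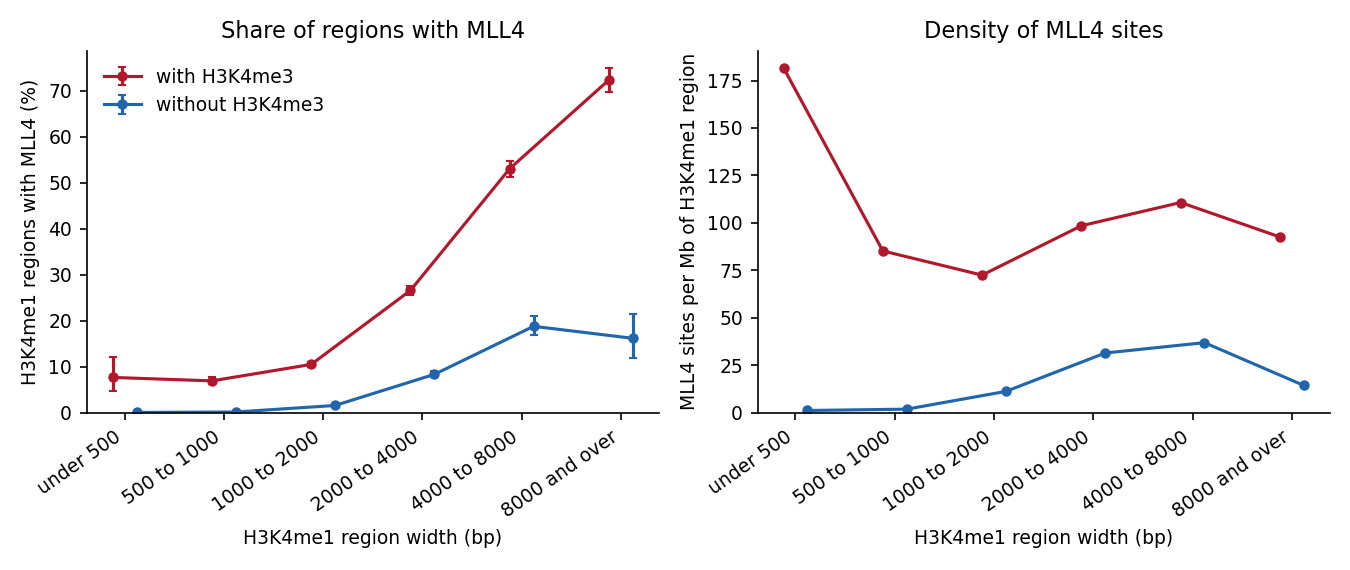
Share of H3K4me1 regions with MLL4 (left, percent, bars are 95% Wilson intervals) and MLL4 sites per Mb of region (right) against region width in bp, for regions with H3K4me3 and without it. Regions of 8000 bp and over reached 72.4% with H3K4me3 and 16.2% without. With H3K4me3 the density was highest in the narrowest bin, at 182 sites per Mb from 16 sites. Sites reaching beyond a region raise the density most in that bin.

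Regions with strong H3K4me1 carried MLL4 most often. The highest H3K4me1 fold in a region had a median of 15.9 in list 1 and 16.9 in list 2 where MLL4 was present, against 7.79 and 8.11 where it was absent. Ranked by fold within each list and cut into 4 equal classes, from low to high, 0.30%, 1.84%, 6.75% and 28.8% of regions carried MLL4, a difference of 28.5 points between the ends (31.6 to 34.6 in the pairings). Wide regions also had high fold (Spearman's rho 0.73 over 78103 regions, as a description: each region's width and fold come from the same libraries). Within the widest of the 4 width classes, the share still went 0.61%, 3.36%, 11.2% and 37.3% by fold. In the narrowest it went 0.19%, 0.89%, 2.75% and 8.24%. At the highest fold, the shares were 8.24%, 11.4%, 13.9% and 37.3% from the narrowest to the widest class.

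**Figure D2:**
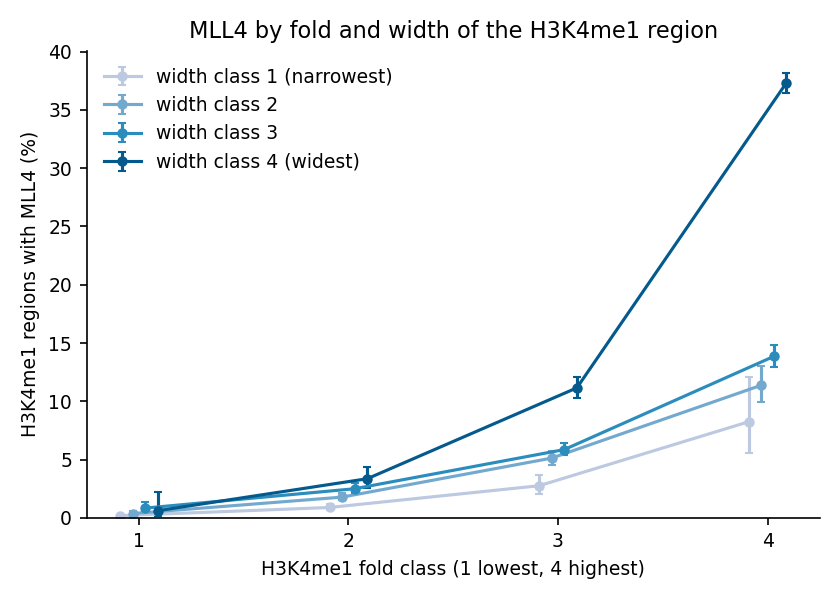
Share of H3K4me1 regions with MLL4 (percent, bars are 95% Wilson intervals) by H3K4me1 fold in 4 equal classes (1 lowest), with 1 line for each of 4 equal classes of region width. Every line climbs to the right, and the widest regions of highest fold reach 37.3%.

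Near a gene end, within 2 kb, 4101 of 30894 H3K4me1 regions carried MLL4 (13.3%), against 3254 of 47209 distal regions (6.89%), a difference of 6.38 points (5.90 to 11.1 in the pairings). The annotation table gives no strand, so a gene end is either the start or the stop. Regions that contained a gene end carried MLL4 in 22.8% and those 1 to 500 bp away in 12.3%. From there on the shares stayed between 5.11% and 7.33%, out to regions over 100 kb from any gene end. A wide region is more likely to contain a gene end, and median widths were 2073 bp at distance 0 and 1234.5 bp at 1 to 500 bp. Counted per Mb of region, MLL4 sites were nearly as dense at 1 to 500 bp (84.6) as at distance 0 (89.9). Beyond 500 bp the density lay between 35.2 and 47.3. How much of the step from 22.8% to 12.3% came from width was not tested. By width class, from narrow to wide, near regions carried MLL4 in 2.19%, 6.25%, 9.05% and 29.1%, and distal ones in 0.21%, 1.04%, 4.42% and 25.6%. Near regions thus had the higher share in each of the 4 classes.

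H3K4me3 divided the regions further. Of H3K4me1 regions with an H3K4me3 peak, 6181 of 28943 carried MLL4 (21.4%), against 1174 of 49160 without one (2.39%), a difference of 19.0 points (21.6 to 26.98 in the pairings). It was present at each width: from narrow to wide, 5.23%, 8.76%, 11.8% and 38.5% with H3K4me3, and 0.087%, 0.49%, 2.37% and 10.7% without. H3K27ac gave 19.6% with and 2.01% without. From narrow to wide, the shares were 3.52%, 7.37%, 10.4% and 33.5% with H3K27ac, and 0.298%, 1.13%, 2.84% and 8.71% without. Regions with both marks carried MLL4 in 26.2%, those with H3K4me3 alone in 7.37%, those with H3K27ac alone in 7.13% and those with neither in 0.96%. Regions with H3K4me3 alone had a median width of 1267 bp and 50.2 MLL4 sites per Mb. Those with H3K27ac alone had 1641 bp and 32.8. The H3K4me3 side rests on 1 list and has no replicate.

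Split by H3K4me3, the order of near and distal regions changed. Among regions with H3K4me3, 17.8% of near and 31.6% of distal ones carried MLL4, a difference of -13.7 points (-20.5 to -13.8 in the pairings). Among regions without it, the shares were 2.78% near and 2.296% distal, a difference of 0.48 points (0.86 to 1.46). Near regions with H3K4me3 were narrower (median 1625.5 bp) than distal ones (median 2289 bp), so the split was repeated by width. From narrow to wide, near regions with H3K4me3 carried MLL4 in 5.25%, 8.98%, 11.2% and 33.2%, and distal ones in 5.15%, 7.58%, 13.7% and 48.1%. The share was higher in distal regions in the 2 wider classes of this split. At MLL4 sites on H3K4me1, the H3K4me3 fold had a median of 94.4 near gene ends, against 11.8 at distal sites and 44.8 over all H3K4me3 peaks. Within the weaker 50% of H3K4me3 peaks, 29.7% of near and 35.2% of distal regions carried MLL4, and within the stronger 50%, 15.4% and 20.9%. Split by width as well, the stronger 50% carried MLL4, from narrow to wide, in 6.11%, 9.44%, 11.2% and 27.7% of near and in 10.6%, 12.9%, 12.3% and 34.8% of distal regions, and the Wilson intervals overlapped in the 3 narrower classes. In the weaker 50%, from narrow to wide, the shares were 0.361%, 4.82%, 11.6% and 49.3% near, and 1.498%, 3.79%, 14.4% and 50.95% distal. The intervals overlapped in all classes of the weaker 50%. Split by width and strength, the share was thus higher in distal regions except in the class next to the narrowest of the weaker 50%. The intervals were apart only in the widest class of the stronger 50%.

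**Figure D3:**
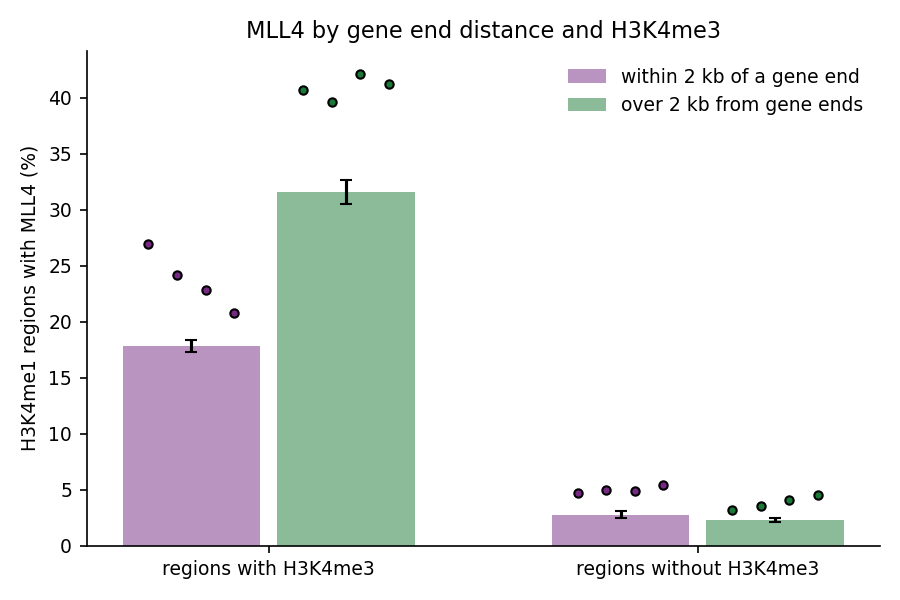
Share of H3K4me1 regions with MLL4 (percent) within 2 kb of a gene end and farther away, for regions with and without H3K4me3. Bars give shared regions and shared MLL4 with 95% Wilson intervals, and the 4 dots give the pairings of 1 list with 1 list, which lie above the bars because only 1 MLL4 list has to hold a peak; with H3K4me3 the distal bar is the higher, at 31.6%.

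Within its region, MLL4 sat towards the middle at distal sites, and much less so near gene ends. Of the 7913 sites on H3K4me1, 7195 (90.9%) had their summit inside the region, and 84.0% under peaks of both H3K4me1 lists. Cut into 10 equal parts from one edge to the other, regions held 18.3% and 19.0% of these summits in the 2 central parts, against 5.00% and 4.92% in the outermost. The central 50% of the region held 57.8% of these summits near gene ends and 82.96% of distal ones, where an even spread would give 50%. Sites with the summit outside the region are left out of these shares: 2859 of 3494 sites near gene ends and 4336 of 4419 distal sites were counted. From the MLL4 summit to the nearest H3K4me1 summit the median distance was 479 bp.

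The marks around the MLL4 summit differed by class. At sites on no H3K4me1, coverage by H3K4me1 at the summit is 0 by definition, but 1300 bp before the summit 75.8% of them lay under H3K4me1 in list 1, and 1300 bp after it 65.2% did in list 2. At sites near gene ends on H3K4me1, H3K4me1 covered 80.5% and 70.7% of summits in lists 1 and 2, and H3K4me3 87.7%. At distal sites on H3K4me1, 97.6% and 96.1% of summits lay under an H3K4me1 peak and 60.8% under H3K4me3, which was down to 12.4% and 13.1% at 1 kb on either side.

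**Figure D4:**
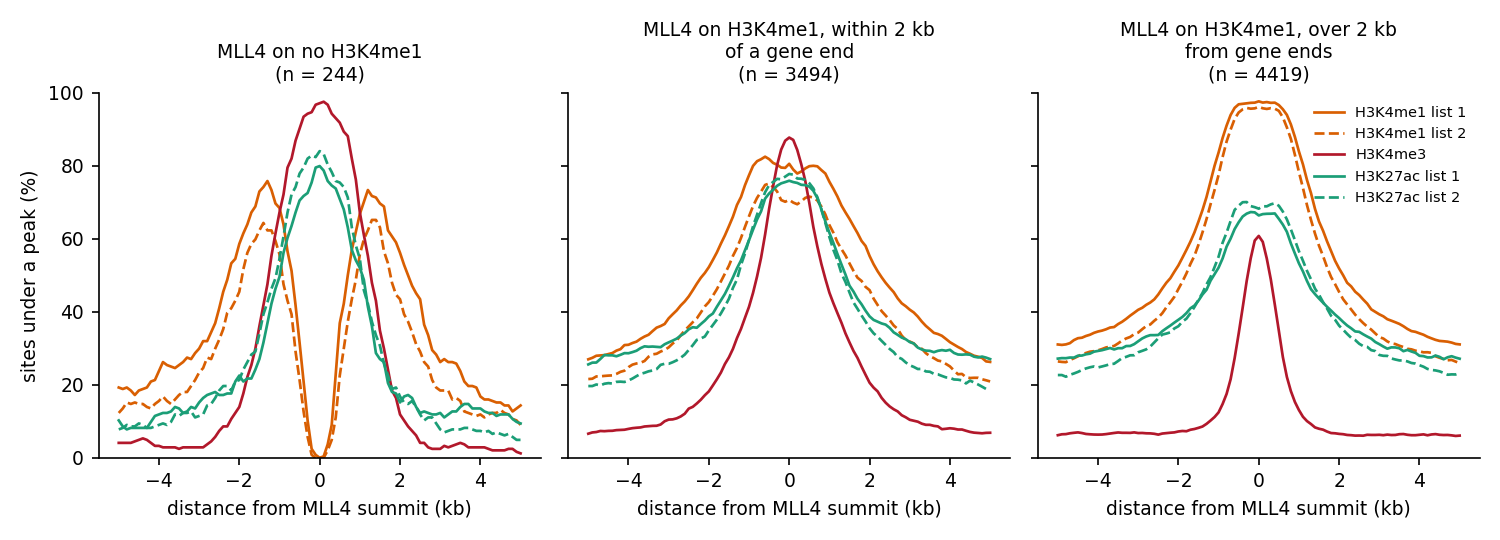
Share of MLL4 sites (percent) with a peak of H3K4me1, H3K4me3 or H3K27ac at each distance from the MLL4 summit in kb, for sites on no H3K4me1 (left), on H3K4me1 within 2 kb of a gene end (middle) and on H3K4me1 farther away (right). H3K4me1 has shoulders on both sides of an empty centre on the left and a plateau of 97.6% and 96.1% at the summit on the right.

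MLL4 sites of both lists without H3K4me1 lay mostly at gene ends with H3K4me3. Of the 244 sites, 239 (98.0%, 95.3 to 99.1%) overlapped H3K4me3, 234 (95.9%) lay within 2 kb of a gene end and 154 (63.1%) contained one. Among MLL4 sites on H3K4me1 these shares were 81.3%, 44.2% and 21.04%. H3K27ac of both lists was present at 91.8% of the sites without H3K4me1 and at 82.4% of those on it. The sites without H3K4me1 were rarely far from it: the nearest H3K4me1 peak was at a median of 150.5 bp, 237 sites had one within 1 kb, 180 had one within 1 kb on both sides, and 4 were over 5 kb away. Their H3K4me3 was strong, with a median fold of 118.9. Their MLL4 was somewhat weaker than elsewhere, with a median fold of 5.61 in both lists, against 6.20 and 6.90 at sites on H3K4me1. These shares rest on asking for both MLL4 lists. For H3K4me3, pairings with the first list gave 39.3% and 47.6%, and those with the second 83.4% and 87.8%. Of all 2879 peaks of the first list on no H3K4me1, 50.1% lay near a gene end and 45.6% overlapped H3K27ac of both lists. Of the 775 such peaks of the second list, 80.8% and 76.0% did.

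The strongest of these sites lay at DLG1, a scaffold protein of cell junctions, with folds of 17.5 and 23.3 in lists 1 and 2 (chr3:197297932-197299333), and its nearest H3K4me1 peak was 95 bp away. Next came STT3B, a subunit of the oligosaccharyltransferase (15.3 and 19.0), and YAP1, the Hippo pathway coactivator (14.4 and 16.5). YWHAZ, CEP95, NR2F2, HNRNPD, ANKIB1, USP9X and PEX13 completed the 10. All 10 overlapped H3K4me3, and all but PEX13 overlapped H3K27ac of both lists. RABGAP1 was the only gene with 2 such sites, and 242 genes had at least 1. The 5 sites with neither H3K4me1 nor H3K4me3, named after their values were seen, had modest folds between 4.49 and 6.46. One lay 390 bp from EGR1, an immediate early transcription factor gene, and others lay nearest TRAPPC9, ACSF3 and EXOC7 or had no protein-coding gene within 100 kb.

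At promoters themselves, MLL4 was more frequent beside H3K4me3 alone than beside H3K4me1 alone. The 15812 promoter windows of protein-coding genes that matched by gene ID included 1592 with MLL4 (10.1%). The share was 18.2% (1018 of 5595) in windows with H3K4me1 and H3K4me3, 13.6% (564 of 4141) in windows with H3K4me3 alone, 1.40% (8 of 571) with H3K4me1 alone and 0.0363% (2 of 5505) with neither. A window counted as having H3K4me1 when a shared region overlapped it. Of the 564 windows, 155 held a site on no H3K4me1. In 409 the MLL4 site reached a shared region outside the window or touched H3K4me1 of 1 list only. Windows with MLL4 had a median of 28 CpG dinucleotides, against 26 in windows without MLL4 that carried both marks, 29 in those with H3K4me3 alone and 22 in all windows.

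Short factor motifs were counted on both strands of these windows. The letters GGGCGG (SP and KLF) were in 80.2% (78.2 to 82.1%) of windows with MLL4, against 73.3% (72.0 to 74.6%) of windows without MLL4 that had both marks and 58.5% of all windows. TGANTCA (AP-1) was in 6.16% with MLL4, 4.50% with both marks and no MLL4, and 5.76% of all. CCGGAAG (ETS) was in 16.6% with MLL4, 16.6% with both marks and no MLL4, 27.3% with H3K4me3 alone and no MLL4, and 14.2% of all. GGAATG (TEAD), which shares the letters GGAA with the ETS motif, was in 10.6% of windows with MLL4, 10.7% with both marks and no MLL4, and 11.7% of all. CACGTG (E-box) was in 9.99% with MLL4, 11.7% with both marks and no MLL4, and 8.87% of all. TATAAA, bound by TBP, was in 3.89% with MLL4, 5.33% with both marks and no MLL4, 3.998% with H3K4me3 alone and no MLL4, and 9.64% of all. In windows with H3K4me3 alone and no MLL4, GGGCGG was in 75.65%, TGANTCA in 2.54%, GGAATG in 8.72% and CACGTG in 9.73%. Median GC was 68% in windows with MLL4. Without MLL4 it was 65.7% with both marks and 66% with H3K4me3 alone. A match in the letters is a description and no evidence of binding.

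The strongest MLL4 sites on H3K4me1 carried all the marks. First in both lists was a site inside MYO9B, an unconventional myosin (chr19:17135059-17136009), with MLL4 folds of 34.9 and 78.9 in lists 1 and 2 and H3K4me1 folds of 19.9 and 11.9. A site 11749 bp from CACNG4, of the calcium channel gamma subunit family, had MLL4 folds of 33.8 and 31.2. One nearest S100A11, a calcium-binding protein, had 29.2 and 40.5. Sites inside STMN1 (stathmin, a microtubule regulator), ARRDC1, PIGL and MERTK (a receptor tyrosine kinase) were also among the 10. The remainder lay 64536 bp from GPC1 (a cell surface proteoglycan), 18063 bp from PKNOX1 and 16037 bp from ACBD3. Each of the 10 overlapped H3K4me3 and H3K27ac of both lists, and their regions were between 3359 and 9805 bp wide.

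The widest H3K4me1 regions with MLL4 lay over non-coding genes and a signalling gene. A region of 93.5 kb on chromosome 7 covered the microRNA genes MIR29A and MIR29B1 and part of LINC-PINT, and held 2 MLL4 sites. One of 74.6 kb on chromosome 11, in the microRNA host gene MIR100HG and nearest the coding gene BLID, covered MIRLET7A2 and MIR100 and also held 2. The third, of 67.5 kb at SMAD3, a transcription factor of the TGF-beta pathway, held 5. Of the widest regions without a shared MLL4 site, the one of 61.8 kb at EZR (ezrin, a protein of microvilli) had a peak in 1 MLL4 list. Those of 38.2 kb in PDE4B and 38.0 kb on chromosome X had none in either list. TJP3, a tight junction scaffold, NANOS3 and PLEC each had a region with 6 MLL4 sites, named after their values were seen.

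By chromosome, the share of H3K4me1 regions with MLL4 ran between 5.64% (chromosome 4) and 14.2% (chromosome 17) on the autosomes, and was 2.57% (1.91 to 3.45%, 43 of 1672 regions) on X. The regions on X were also narrow, with a median of 1057 bp against 1296 bp over all chromosomes, and the part of width in this share was not tested.

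At the level of genes, 16097 protein-coding genes had a shared H3K4me1 region assigned within 100 kb, and 4907 of them (30.5%) had at least 1 that carried MLL4. In 3491 genes a single region did, and in 55 genes 5 or more. The share of genes with MLL4 depended on the number of regions, at 8.87% for genes with 1, 21.6% with 2 to 3, 35.8% with 4 to 6, 56.3% with 7 to 12 and 80.1% with 13 or more. CUX1, a homeobox transcription factor, led with 13 of 53 regions, followed by GSE1 with 11 of 52, SLC39A11 with 11 of 48 and PRKAG2 with 10 of 30. CMIP (8 of 43), CTBP2 (8 of 23) and PITPNC1 (8 of 21) were tied for the fifth place. Some genes were rich in H3K4me1 with no carrying region: TNIK, a kinase of the Wnt pathway, had 37 regions, MBNL1 35, RERE 32, ANK3 31 and DCBLD2 30. TNIK did have 1 MLL4 site, on no H3K4me1.

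Among genes of the MLL3 and MLL4 complexes, 1 of 9 with an H3K4me1 region had a carrying region, beside 30.5% of all genes, a share that 9 genes can give only coarsely. It was DPY30, a core subunit of all H3K4 methyltransferase complexes of this family, on 2 of its 5 regions. KMT2D itself had 3 H3K4me1 regions, KMT2C 9, KDM6A 13, PAXIP1 4 and NCOA6, a coactivator subunit, 6, all with no shared MLL4 site on them. The core subunits WDR5, RBBP5 and ASH2L had 5, 2 and 3 regions, likewise without MLL4. PAGR1, outside the 9, was nearest to 2 MLL4 sites on H3K4me1 and held 2 MLL4 peaks of each list in its body, but the regions below them were assigned to other genes. KMT2C had 1 MLL4 site on no H3K4me1. Among the other H3K4 methyltransferase genes 4 of 9 had a carrying region, SETD1B on 2 of 4 and KMT2A, SETD1A and PSIP1 on 1 each. Of the enhancer coactivators 7 of 15 did, led by the SWI/SNF subunit ARID1B with 6 of 30 regions and NCOA3 with 3 of 24. By regions the coactivators had 15 of 184 with MLL4 (8.15%), under the 9.42% of all regions, and the other H3K4 methyltransferase genes 5 of 28 (17.9%). Of the H3K4 demethylases 1 of 5 had a carrying region, KDM1B.

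Counted by genes, lists of epithelial and growth signalling genes had the largest shares, and counted by regions the order differed. Among 25 genes of epithelial junctions and keratins, 20 had a carrying region (35 of 156 regions, 22.4%, against 9.42% of all regions). EPCAM, the epithelial adhesion molecule, had 4 of 13 regions, TJP1 (the tight junction protein ZO-1) 4 of 22 and JUP (plakoglobin) all 3. EGFR and MAPK feedback genes had 15 of 20 genes (28 of 223 regions, 12.6%), with DUSP5, an ERK phosphatase, on 4 of 18 regions, SPRED2 on 4 of 22 and EGFR on 3 of 24. YAP and AP-1 genes had 15 of 20 (34 of 172 regions, 19.8%), with AMOTL2, ATF3 and JUN on 4 each. Of 20 Wnt targets 14 had one (27 of 176 regions, 15.3%), among them AXIN2, a feedback inhibitor, on 4 of 12 regions, EPHB2 on 3 of 17 and the transcription factor SOX9 on 3 of 9.

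By genes, other pathways lay between these and the background of 30.5%. TGF-beta and BMP genes had 11 of 19 (13.6% of regions), with SMAD6 on 7 of 35 regions, SMAD3 on 4 of 19 and ID3 on 3 of 12. Intestinal transcription factors had 11 of 20 (10.6% of regions), with ELF3 on 4 of 6 regions and EHF and GATA6 on 2 each. p53 targets had 11 of 20 (16.3% of regions), including CDKN1A, MDM2 and PMAIP1 on 2 each, and Notch genes had 7 of 14 (11.8% of regions), with NOTCH1 on 4 of 10 regions. Housekeeping lists were near or under the background by genes, with heat shock genes at 6 of 18, ribosomal protein genes at 6 of 22 and cell cycle genes at 4 of 19 (CDK6 on 3 of 26 regions). By regions, heat shock genes (9 of 62, 14.5%) and ribosomal protein genes (8 of 64, 12.5%) were above the 9.42% of all regions and near the EGFR and MAPK genes, and cell cycle genes (7 of 90, 7.78%) were under it. Mesenchymal genes had 5 of 17 (SNAI2 on 2 of 4) and HOX genes 3 of 16 (HOXA3 on 2 of 3). Lists with more regions per gene had more chances to carry MLL4: the median was 7 regions per gene for Wnt targets and for EGFR and MAPK genes, 5 for epithelial genes, 2.5 for heat shock genes and 2 for ribosomal protein and cell cycle genes, against 3 over all genes with a region.

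**Figure D5:**
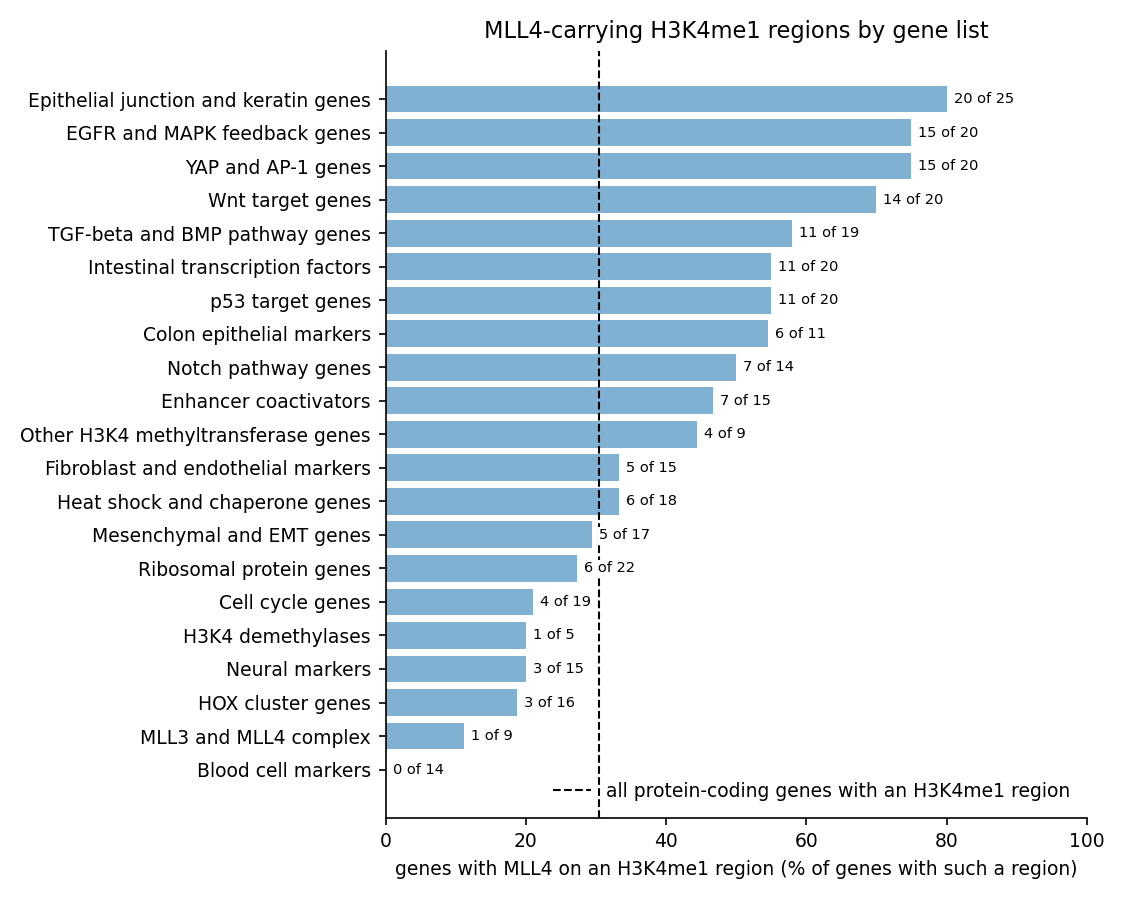
Percent of the genes of each list that have an H3K4me1 region with MLL4, out of list members with any shared H3K4me1 region (counts beside the bars). The dashed line marks 30.5%, the value over all protein-coding genes with a region. Epithelial junction and keratin genes reach 20 of 25 and blood cell markers 0 of 14. Blood cell markers had a median of 1.5 regions per gene, against 3 over all genes with a region.

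Markers of cell types were used to check the label of the cells. H3K4me3 lay on 7 of 12 colon epithelial markers (58.3%): EPCAM, CDH1, KRT8, KRT18, KRT19, CDX2 and GPA33. KRT20, CDX1, VIL1, LGALS4 and CEACAM5 had none. It lay on 4 of 16 blood markers, on 6 of 16 fibroblast and endothelial markers and on 12 of 16 neural markers. Among all protein-coding genes 13542 of 19974 (67.8%) had it, a larger share than among colon markers. This check therefore did not separate colon from neural markers. Beside 30.5% of all genes, a carrying region was assigned to 6 of 11 colon markers with H3K4me1 and 0 of 14 blood markers. The 6 were EPCAM, CDH1, KRT8, KRT18, KRT19 and KRT20, all also members of the epithelial junction and keratin list. CDX1, CDX2, GPA33, LGALS4 and CEACAM5 had H3K4me1 regions, but none that carried MLL4. A carrying region was assigned to 5 of 15 fibroblast and endothelial markers (VWF on 3 of 13 regions, CDH5 and CLDN5 on 1) and 3 of 15 neural markers (MBP on 3 of 13). By regions, 11 of 62, 0 of 33, 7 of 72 and 6 of 90 carried MLL4 in the same order, beside 9.42% of all regions. Blood markers had a median of 1.5 regions per gene, against 5 for colon markers and 3 over all genes with a region. The nearest gene need not be the one a region acts on.

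The control H3K4me1 regions were last set against MLL4 of FOXD2 cells, library by library. They held a peak in 14.3% and 5.31% for the 2 FOXD2 lists (9.80 ± 6.35%, SD, n = 2), against 14.6% and 14.3% for the control lists (14.5 ± 0.225%, SD, n = 2). The difference of -4.69 points had p = 0.33 in an exact two-sided permutation test, the smallest value that 2 lists against 2 allow. The lists differed in length: the second FOXD2 list held 4676 peaks and the first 22493, against 16046 and 13571 in control. Without the second FOXD2 list the difference was -0.198 points, and with lists of equal length -0.361. What lay behind these shifts was not tested. Of the FOXD2 peaks 56.9% and 94.7% lay on control H3K4me1, against 81.0% and 93.7% of control peaks (exact permutation p = 1). The labels do not say that replicate libraries came from separate cultures, so this p measures only the spread between these libraries.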

How the data were processed

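Histone marks and MLL4 were profiled in HCT116 cells by chromatin immunoprecipitation with sequencing. Per the submitters' processing notes, reads were handled with Picard, bedtools, Bowtie2 2.3.4.1 and cutadapt 3.4, and peaks with MACS2 2.2.7.1, on hg38. For each library the authors deposited a narrowPeak list. Its values are a score, the fold enrichment (a ratio), and p and q as −log10, all as deposited. The background library and read depth are not given in the sources used here. Fold was used only within a list.

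Peaks on chromosomes 1 to 22 and X were merged per kind (gap 0 bp). Genes came from the RefSeq table of GRCh38.p14, which has no strand. Each region was assigned to the nearest protein-coding gene within 100 kb. Shares carry 95% Wilson intervals and the range over the 4 pairings of 1 MLL4 with 1 H3K4me1 list. The FOXD2 comparison used an exact permutation test. No genome was used, so sequence was read only in promoter windows.

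The question, the 21 gene lists (347 genes, all matched) and the motifs were chosen with earlier results of these data known. Named genes were those of the MLL3 and MLL4 complexes, the 10 strongest sites on and off H3K4me1 by summed within-list rank, the 5 leading genes for regions or sites of each class, the 3 widest regions with and without MLL4, and up to 3 members per list. A few of these are given only in counts. Alternatives were a −log10 q of at least 5, at least 50% of the shorter interval covered, a gap of 500 bp, the MLL4 summit in the region, equal list lengths, regions of at least 1 list, other distances, each list left out, and a replicate block. Region overlap was tested on simulated lists. Python 3.11.15, numpy 2.4.6, pandas 2.3.3, scipy 1.17.1 and matplotlib 3.10.9 were used.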

Additional observations from a re-analysis of the deposited data

Results flagged for a closer look

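The difference between near and distal H3K4me1 regions in the share with MLL4 had opposite signs in regions with and without H3K4me3. It was -13.7 points (17.8% near, 31.6% distal) with H3K4me3 and 0.481 points (2.78% near, 2.296% distal) without it. All 4 pairings of lists gave the same signs, and they share libraries. The difference between these 2 values was not tested. Within width classes neither sign held throughout. With H3K4me3, from narrow to wide, the shares were 5.25%, 8.98%, 11.2% and 33.2% near, and 5.15%, 7.58%, 13.7% and 48.1% distal. Without it they were 0.24%, 0.67%, 2.18% and 11.2% near, and 0.056%, 0.45%, 2.42% and 10.5% distal. Without H3K4me3, the Wilson intervals overlapped in all but the narrowest class.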

How the results depend on the processing

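Of 93 recomputed values for the comparisons, 49 kept within the spread over the 4 pairings (counts of genes within 1.5 times, and the FOXD2 comparison in direction), 44 moved beyond it, and 0 changed sign. Only differences can change sign, and shares and gene counts cannot. The spread was the SD over the pairings, 0.254 points for the share of H3K4me1 regions with MLL4. It was 24.6 points for the share of MLL4 sites without H3K4me1 that carry H3K4me3. The tally therefore depends on this rule. The share of H3K4me1 regions with MLL4 was 7.47% with peaks of −log10 q of at least 5, 8.16% with an overlap of 50%, 10.2% with a gap of 500 bp, 8.30% with the MLL4 summit in the region, 9.14% with equal list lengths, 14.3% with regions and sites of at least 1 list, and between 7.33% and 14.6% with 1 list left out. The share of MLL4 sites on H3K4me1 was 86.6% with the 50% overlap, 87.9% by summit, 85.1% with at least 1 list, and 81.0% to 96.8% with 1 list left out. Near minus distal was 3.74 points with the stricter q, 3.86 with the 50% overlap, 4.18 by summit, and 5.56 to 10.98 with a list left out. Highest minus lowest fold was 22.97 points with the stricter q, 26.6 with the 50% overlap, 30.8 with the gap, 26.9 by summit, and 23.7 to 40.0 with a list left out. Widest minus narrowest was 21.3 points with the stricter q, 28.5 with the gap, and 22.995 to 37.7 with a list left out. With minus without H3K4me3 was 13.4 points with the stricter q, 15.8 with the 50% overlap, 16.1 by summit, and 18.2 to 26.5 with a list left out. The share of MLL4 sites without H3K4me1 that carry H3K4me3 was 38.2% without the second MLL4 list, and up to 98.5% without another. Genes with a carrying region were between 4809 and 6992 with a list left out. FOXD2 minus control was between -9.18 and -0.198 points with a list left out. Of 42 recomputed list counts, 41 stayed within 1.5 times the main count, and the exception was fibroblast and endothelial markers, at 3 with genes within 20 kb. Apart from designs with fewer lists, the cause of each shift was not tested.

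A replicate block, which takes the mean of the same-numbered pairs of lists, gave 11.5% of H3K4me1 regions with MLL4, 85.9% of MLL4 sites on H3K4me1, 33.8 points by fold, 32.8 by width, 24.3 by H3K4me3, and 63.6% of sites without H3K4me1 with H3K4me3. For FOXD2 against control the paired difference was -4.69 points, with p = 0.5, the smallest that 2 pairs allow in an exact permutation test. The labels give the libraries only a shared number, and deviations of same-numbered FOXD2 and control MLL4 lists correlated at 0.051 over 78103 regions.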
